A study of Rattus norvegicus with 4 samples.

Results

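Voltage-gated ion channel genes and their closest relatives were taken as the genes whose symbol starts with Kcn (potassium channels), Cacn (calcium channels), Scn followed by a digit (sodium channels), Clcn (chloride channels and exchangers) or Hcn (pacemaker channels). Probe sets that carried exactly 1 gene symbol gave 83 such genes of 4736 on the array, read by 131 probe sets. They were 54 potassium, 14 calcium, 10 sodium and 5 chloride channel genes, and no Hcn gene was among them. The rule is by symbol, so it also takes in genes that voltage does not gate, such as inward rectifier and tandem-pore potassium channels, and 12 genes for auxiliary subunits. Pore-forming subunits of the voltage-gated families made up 44 of the 83, counting by symbol the silent subunits and Scn7a, which do not open to voltage by themselves. A single probe set read 49 of the genes, and 34 were read by 2 to 5.

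The study measured whole rat testis on an Affymetrix array of short oligonucleotides, with 1 deposited sample, called an array here, in each of 4 groups. Rats of 20 days were given a diet without vitamin A for 9 weeks, and all 4 groups shared this deficiency. The VAD group was the deficient testis with no retinol (0 h), and the others were deficient testis 4, 8 and 24 h after retinol (RO in the labels). The sources used here do not give strain, retinol dose or the number of animals behind an array. With 1 array a group, no difference below was tested between animals, and none has a replicate check. In whole testis, fewer cells of a type and less RNA per cell cannot be told apart.

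Ion channels are membrane proteins with a pore that selects for an ion. In voltage-gated members a charged sensor opens the pore when the membrane depolarises: sodium channels drive the upstroke of an action potential, calcium channels turn it into calcium entry, and potassium channels end it. In the testis, channels of these families are known from germ cells and sperm, where potassium and calcium currents take part in capacitation and motility, and from Leydig, smooth muscle and nerve cells. Chloride channels of the Clcn family act at the plasma membrane or, as chloride-proton exchangers, in endosomes and lysosomes.

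The deposited values are linear ratios against an unstated reference that lies close to the VAD array: 59.7% of all probe sets had a VAD ratio within 10% of 1. Ratios carry no signal level, so whether a channel or a cell type marker was present at all in these testes cannot be read from them, and levels cannot be compared between genes. A change below is a log2 difference in deposited ratio between 2 arrays, so that 1 is 2-fold, and a gene's value is the mean over its probe sets. Over all genes the median change at 4, 8 and 24 h was -0.09, -0.12 and -0.12. The 9 probe sets of the hybridisation spike-ins had median changes of -0.55, -0.58 and -0.71. Scaling each array on the median of these probe sets would therefore raise all changes, and small negative ones would turn positive. Negative changes below hold for the values as deposited. Changes by the 5′ probe set of beta-actin were 1.05, 1.27 and 1.30 above those by its 3′ probe set, and those of GAPDH 0.68, 0.90 and 0.91 above. Where along a transcript each channel probe set lies was not examined, so its part in the differences between probe sets was not tested.

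As a group the channel genes lay near VAD and slightly above other genes. Median changes were -0.04, -0.04 and -0.01 at the 3 times, against -0.10, -0.12 and -0.12 for the other 4653 genes. After scaling on the spike-ins these channel medians became 0.51, 0.46 and 0.61, and other genes moved by the same amount. Individual channel genes spread less widely than other genes at 8 h and 24 h (SD across genes 0.41 and 0.43, against 0.49 and 0.53) and about as widely at 4 h (0.38 against 0.41). At 4 h, 35 of 83 channel genes were above VAD (42.2%, with 38.8% of all genes), at 8 h again 35 (38.5% of all genes) and at 24 h 40 (48.2%, with 40% of all genes).

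**Figure D1:**
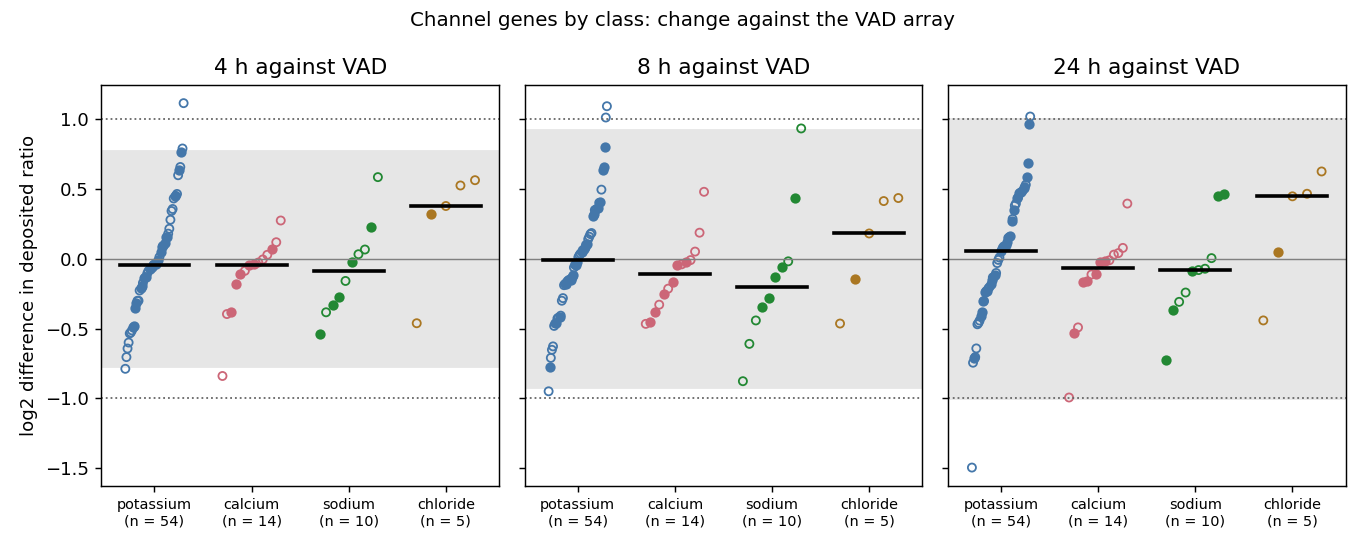
Log2 difference in deposited ratio against the VAD array (vertical axis) for each channel gene at 4, 8 and 24 h, grouped by class. Filled points are genes with 2 or more probe sets, open points genes with 1, black bars are class medians, the grey band is 2 times the noise of 1 probe set and dotted lines mark 2-fold. Most genes lie inside the band, and the few outside 2-fold are open points of the potassium class.

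Changes of 2-fold were few and all in genes read by 1 probe set. At 4 h Kcnk5 alone was at least 2-fold higher (1.41% of all genes were so called) and no channel gene was 2-fold lower (1.25% of all genes). At 8 h Kcnk5 and Kcnt1 were 2-fold higher (2.83% of all genes) and none was 2-fold lower (1.88%). At 24 h Kcnt1 was 2-fold higher (3.27%) and Kcnc1 2-fold lower (2.64%). As shares of the 83 genes these counts were 1.2%, 2.4% and 1.2% higher and 0%, 0% and 1.2% lower. With at most 2 genes in a direction, they are too few to set channel genes apart from the whole array. With spike-in scaling 11, 6 and 21 channel genes were 2-fold higher and none was 2-fold lower at 24 h. This scaling moves every gene on an array by the same amount, and the share of all genes so called was not computed with it. At 1.5-fold as deposited, 7 were higher and 5 lower at 4 h (6.17% and 6.63% of all genes), 6 and 7 at 8 h (8.53% and 12.3%), and 5 and 7 at 24 h (8.99% and 14.1%).

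Kcnt1, the sodium-activated potassium channel Slack that shapes firing in neurons, had ratios of 1.09, 1.89, 2.20 and 2.21 on the VAD, 4, 8 and 24 h arrays. All 3 retinol arrays were above VAD, by 0.79, 1.01 and 1.02. Kcnk5, a tandem-pore channel that carries alkaline-sensitive background potassium current, had ratios of 0.928, 2.01, 1.98 and 1.33. It was high on the 4 h and 8 h arrays (1.12 and 1.09) and nearer VAD at 24 h (0.51). Kcnc1, a fast delayed rectifier of the Shaw type, had ratios of 1.24, 1.32, 1.09 and 0.439. Only the 24 h array was low, at -1.50 (2.82-fold). No second probe set reads any of the 3 genes, and that of Kcnc1 is of a kind that can match several transcripts.

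The sequences around the start of these genes, with those of Kcnd2 and Kcnc2 described below, are shown because retinoic acid receptors bind repeats of the element AGGTCA. Each run spans 250 bases before to 50 bases after the first transcript start listed for the gene (RefSeq, build GRCr8), which for Kcnt1, Kcnd2 and Kcnc2 lies inside the annotated gene and not at its outer end. Runs are given 5′ to 3′ on the gene's strand, with AGGTCA or its reverse complement TGACCT in capitals.
Kcnt1, chr3:29081089-29081388 (plus strand): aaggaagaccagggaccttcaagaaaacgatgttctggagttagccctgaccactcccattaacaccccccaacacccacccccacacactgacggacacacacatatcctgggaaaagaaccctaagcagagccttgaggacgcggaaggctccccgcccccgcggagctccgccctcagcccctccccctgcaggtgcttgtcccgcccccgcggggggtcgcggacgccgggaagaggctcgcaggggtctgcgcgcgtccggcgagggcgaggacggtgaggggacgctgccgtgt
Kcnk5, chr15:4171375-4171674 (plus strand): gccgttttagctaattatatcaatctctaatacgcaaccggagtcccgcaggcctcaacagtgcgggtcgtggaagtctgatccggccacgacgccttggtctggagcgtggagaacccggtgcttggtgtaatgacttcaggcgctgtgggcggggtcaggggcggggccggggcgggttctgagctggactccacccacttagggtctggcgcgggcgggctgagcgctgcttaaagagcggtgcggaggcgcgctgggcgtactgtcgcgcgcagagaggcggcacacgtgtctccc
Kcnc1, chr1:106038997-106039296 (plus strand): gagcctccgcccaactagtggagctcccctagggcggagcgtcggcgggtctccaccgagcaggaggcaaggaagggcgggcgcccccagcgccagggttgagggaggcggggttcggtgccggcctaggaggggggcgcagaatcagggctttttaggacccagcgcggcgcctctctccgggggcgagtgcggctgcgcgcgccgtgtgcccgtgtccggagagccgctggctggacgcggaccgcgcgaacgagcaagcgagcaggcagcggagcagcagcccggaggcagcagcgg
Kcnd2, chr4:50742235-50742534 (plus strand): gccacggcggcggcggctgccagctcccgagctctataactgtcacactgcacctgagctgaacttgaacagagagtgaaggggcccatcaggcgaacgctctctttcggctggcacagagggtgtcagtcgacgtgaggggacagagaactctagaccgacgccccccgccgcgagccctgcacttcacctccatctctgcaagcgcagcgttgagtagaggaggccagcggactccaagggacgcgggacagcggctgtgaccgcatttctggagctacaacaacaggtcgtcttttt
Kcnc2, chr7:49587364-49587663 (plus strand): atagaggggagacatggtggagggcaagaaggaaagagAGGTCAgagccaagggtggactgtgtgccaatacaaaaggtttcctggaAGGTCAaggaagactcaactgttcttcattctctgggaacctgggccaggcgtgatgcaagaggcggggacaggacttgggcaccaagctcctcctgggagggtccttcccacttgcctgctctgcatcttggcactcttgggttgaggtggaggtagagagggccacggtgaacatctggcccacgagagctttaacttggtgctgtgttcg
None of Kcnt1, Kcnk5, Kcnc1 and Kcnd2 has the element in this window, and Kcnc2 has 2 copies. Such windows, 1 a gene, were found for 63 of the 83 channel genes, and 4 of them held the element on either strand (6.35%): Kcnc2, Kcnc4, Kcnh1 and Scn9a. Of all 27457 windows 15.7% held it. No channel window held a direct repeat with a spacer of 1, 2 or 5 bases (AGGTCANAGGTCA, AGGTCANNAGGTCA or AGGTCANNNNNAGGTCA), and 16, 1 and 3 of all windows did. These are matches of letters and show no binding.

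To set changes against measurement error, the disagreement between probe sets of the same gene was used. Over 1048 genes outside the channel group with exactly 2 probe sets, the SD of the difference between the pair, divided by the square root of 2, came to 0.39, 0.46 and 0.50 at the 3 times. This is called the probe set noise. It holds probe error and cross-hybridisation, not the spread between animals. A gene's mean was called beyond noise when it exceeded 2 times this SD over the square root of its number of probe sets, which for 1 probe set is 0.77, 0.92 and 1.002.

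By this rule 7 channel genes were beyond noise at 4 h (8.43%, with 8.51% of all genes), 8 at 8 h (9.64%, with 9.46%) and 6 at 24 h (7.23%, with 9.1%). The share is near that of the whole array at 4 h and 8 h and a little below it at 24 h. Those above VAD were Kcna2, Kcna6, Kcnk5 and Kcnt1 at 4 h (4.31% of all genes), Kcna2, Kcnj11, Kcnk5, Kcnma1, Kcnt1 and Scn10a at 8 h (4.9%), and Kcna2, Kcnc2 and Kcnt1 at 24 h (4.62%). Those below were Cacnb4, Kcnd3 and Kcnj12 at 4 h (4.2%), Kcnd2 and Kcnj12 at 8 h (4.56%), and Kcnc1, Kcnj4 and Scn8a at 24 h (4.48%). With spike-in scaling none of these lower values stayed beyond noise: Cacnb4, Kcnd3 and Kcnj12 were at -0.29, 0.068 and -0.24 at 4 h, Kcnd2 and Kcnj12 at -0.28 and -0.45 at 8 h, and Kcnc1, Kcnj4 and Scn8a at -0.88, -0.090 and -0.10 at 24 h. With the noise taken from probe sets of distinct source sequences (0.42, 0.51 and 0.56), 4, 4 and 3 genes remained: Cacnb4, Kcna2, Kcna6 and Kcnk5 at 4 h, Kcna2, Kcnd2, Kcnk5 and Kcnma1 at 8 h, and Kcna2, Kcnc1 and Scn8a at 24 h. All genes were then called at 6.76%, 7.01% and 6.31%.

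**Figure D2:**
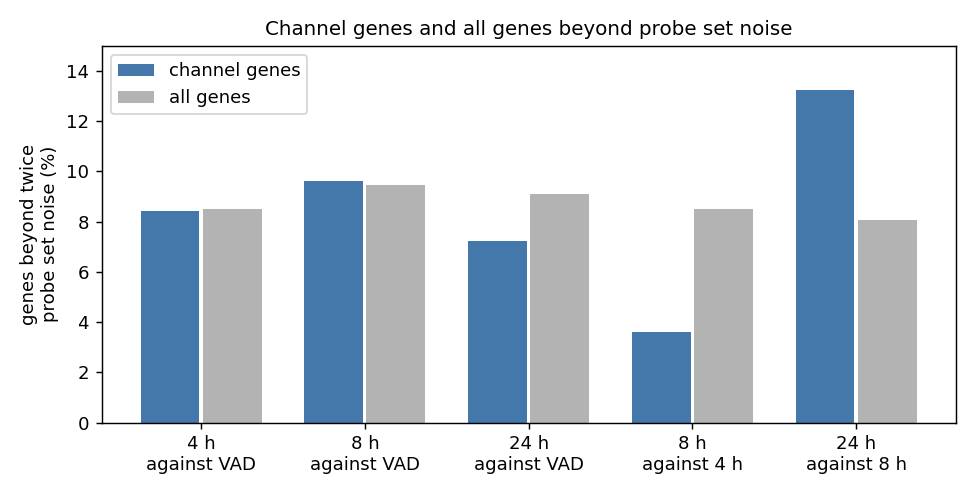
Percent of the 83 channel genes (blue) and of all 4736 genes (grey) whose mean change exceeds 2 times the probe set noise, for 5 pairs of arrays. The blue and grey bars are close at 4 h and 8 h against VAD, and the blue bar is lowest for 8 h against 4 h (3.61%) and highest for 24 h against 8 h (13.3%).

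Agreement between probe sets gave a stricter view. Among the 34 channel genes with 2 or more probe sets, Kcnd2 at 8 h was the only gene and time at which every probe set was at least 1.5-fold from VAD in 1 direction. No channel gene met this at 4 h (0.831% of 1565 genes were so called in the higher and 0.958% in the lower direction), and none was higher at 8 h (1.66%), higher at 24 h (1.92%) or lower at 24 h (3.07%). At 8 h 1 of 34 was lower, with 2.75% of all such genes. These counts hold for the values as deposited: with spike-in scaling 7, 4 and 7 genes had agreeing probe sets at the 3 times, and Kcnd2 at 8 h, at -0.28, was not past 1.5-fold. The share of all genes with agreeing probe sets was not computed with this scaling. At least 1 probe set passed 2-fold in 4, 6 and 6 of the 34 genes at 4, 8 and 24 h, and in none of them did all probe sets do so. Among the other 1531 genes it was 139, 232 and 291, of which 4, 6 and 9 had all probe sets past 2-fold.

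Kcnd2, which makes the fast transient A-type current in neurons and heart, was read by 2 probe sets of different sequences. Their ratios were 1.05, 0.596, 0.581 and 0.84 for one and 0.78, 0.699, 0.48 and 1.16 for the other on the VAD, 4, 8 and 24 h arrays. Both were lowest at 8 h, at -0.85 and -0.70. At 24 h they parted, at -0.32 and 0.57, and the gene's difference between the 24 h and 8 h arrays was 0.90, the highest of the 83. The second probe set had a VAD ratio of 0.78, and the first can match several transcripts. Leaving out either kind of probe set removes 1 of the pair, and then no channel gene agreed at 8 h.

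Kcna2, a Shaker-type delayed rectifier of axons, showed how 1 probe set can make a gene's mean. The first probe set had ratios of 1.30 on the VAD array and 3.61, 4.07 and 4.51 after retinol, whereas the other had 0.992, 1.04, 0.965 and 1.10. Their changes were 1.47, 1.64 and 1.79 against 0.06, -0.04 and 0.15. The gene mean of 0.77, 0.80 and 0.97 was beyond noise at each time, although 1 of its probe sets stayed at VAD.

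**Figure D3:**
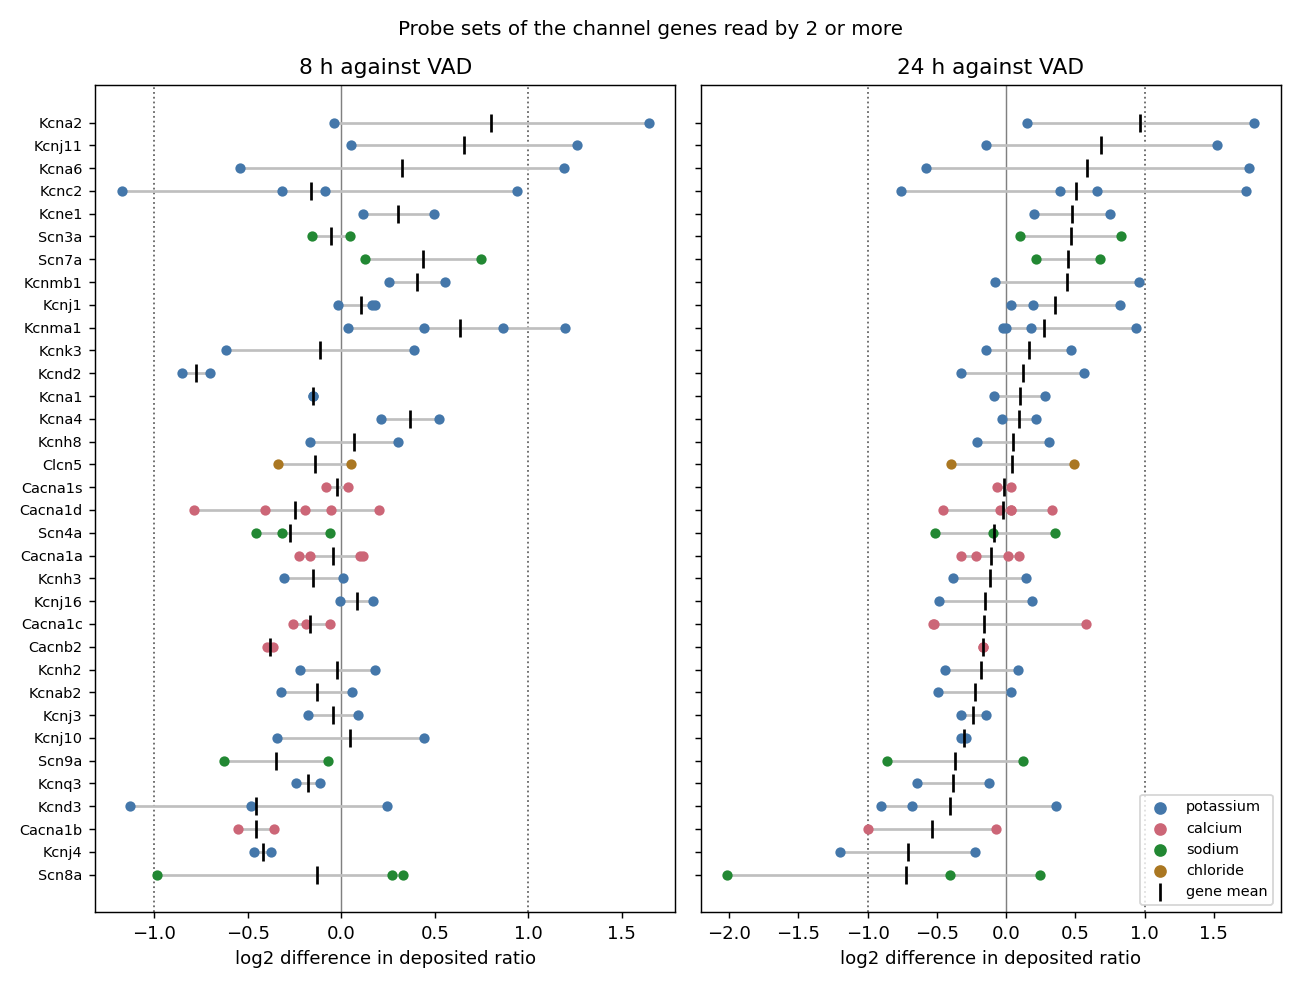
Log2 difference in deposited ratio at 8 h (left) and 24 h (right) against VAD for each probe set (points, coloured by class) of the 34 channel genes with 2 or more, with the gene mean as a black tick and dotted lines at 2-fold. Points of a gene past 2-fold, such as those of Kcna2, Kcnj11, Kcna6 and Scn8a at 24 h, each have a partner near or across 0.

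Other members showed the same split. The Shaker-type gene Kcna6 had changes of 1.22, 1.19 and 1.75 by one probe set and 0.06, -0.54 and -0.58 by the other. Kcnj11, the pore of the ATP-sensitive channel of insulin-secreting cells and muscle, had 1.07, 1.26 and 1.52 by one probe set and -0.17, 0.05 and -0.15 by the other, though both come from the same sequence. The first of these had a VAD ratio of 0.537, far from 1. Kcnc2, a Shaw-type relative of Kcnc1, ranged over 4 probe sets from -0.49 to 0.43 at 4 h, from -1.18 to 0.94 at 8 h and from -0.76 to 1.73 at 24 h. That last span of 2.49 was the widest of all members. Kcnd3, an A-type channel like Kcnd2, had probe sets at -0.88, -0.53 and -0.03 at 4 h and at -0.90, -0.68 and 0.36 at 24 h. All 3 lay below VAD at 4 h, and 1 lay above it at 8 h and 24 h.

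Kcnma1 was above VAD by every probe set at 8 h, over a wide span. It encodes the large-conductance calcium-activated potassium channel (BK) of smooth muscle and nerve, and its 4 probe sets were all above VAD, at 0.04, 0.44, 0.87 and 1.20 (mean 0.64). Gene ratios were 0.973, 0.944, 1.51 and 1.18 on the VAD, 4, 8 and 24 h arrays, so that the 8 h array stood above the other 3. At 24 h the mean was 0.27 with probe sets from -0.02 to 0.94. Kcnmb1, the BK beta subunit of smooth muscle, was at 0.16, 0.41 and 0.44, with both probe sets above VAD at 4 h and 8 h and at 0.96 and -0.08 at 24 h. Of 9 smooth muscle and peritubular markers 8 were measured, with medians of -0.19, -0.20 and -0.19 and none 2-fold changed. They ranged from -0.58 (Cnn1) to 0.11 (Acta2) at 4 h, from -0.98 (Des) to 0.30 (Acta2) at 8 h and from -0.69 (Tpm2) to 0.38 (Acta2) at 24 h. Their part in the values of the BK genes was not tested.

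Across the 34 genes the probe sets of a gene lay a median of 0.37 apart at 4 h, 0.38 at 8 h and 0.76 at 24 h, against 0.43, 0.51 and 0.56 for other genes. This span was larger than the size of the gene's own mean change in 22, 26 and 31 of the 34, and in 1118, 1096 and 1102 of the 1531 other genes. All probe sets of a gene lay on 1 side of VAD in 18, 15 and 11 of them (52.9%, 44.1% and 32.4%, with 49%, 48.8% and 49.5% of all genes with 2 or more). The 11 at 24 h were Cacna1b, Cacnb2, Kcna2, Kcne1, Kcnj1, Kcnj10, Kcnj3, Kcnj4, Kcnq3, Scn3a and Scn7a.

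By class, potassium channel genes, 54 of the 83, gave 6, 7 and 5 of the 7, 8 and 6 genes beyond noise (8.51%, 9.46% and 9.1% of all genes were so called). The other classes gave 1, 0 and 0 of 14 calcium, 0, 1 and 1 of 10 sodium and 0, 0 and 0 of 5 chloride channel genes. Median changes of potassium channel genes were -0.04, -0.01 and 0.06, those of calcium channel genes -0.04, -0.11 and -0.06, those of sodium channel genes -0.09, -0.20 and -0.08, and those of chloride channel genes 0.38, 0.18 and 0.45. Ranges of the 4 classes overlapped at each time, and the differences between class medians were not tested. Scaling on the spike-ins raised all 4 classes alike and turned the negative medians positive.

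Among the 27 voltage-gated potassium channel genes, the medians were -0.04, -0.06 and 0.01. Besides those above, Kcna5, which carries the ultrarapid current of atrium and vascular muscle, was at 0.60 at 4 h and 0.06 at both later times. Kcnv1, a silent subunit that modifies Shab-type channels, was at -0.70, -0.48 and -0.44, and Kcnb2, itself a Shab-type channel, at -0.51, -0.71 and -0.23. Kcnh1, the ether-a-go-go channel, was at -0.30, -0.63 and -0.64. Kcnq1, of cardiac and epithelial repolarising current, was at -0.64, -0.65 and 0.01, and its partner Kcne1 at 0.16, 0.31 and 0.47 with both probe sets above VAD each time. None of these 6 genes was beyond noise against VAD. Means of 2 probe sets were near VAD throughout for Kcna1 (-0.21, -0.15 and 0.10), Kcnh2 (0.11, -0.02 and -0.18), Kcnh3 (-0.06, -0.15 and -0.12) and Kcnh8 (-0.13, 0.07 and 0.05). At 24 h the 2 probe sets of each lay on opposite sides of VAD. They were at -0.09 and 0.28 for Kcna1, -0.44 and 0.09 for Kcnh2, -0.38 and 0.15 for Kcnh3 and -0.21 and 0.31 for Kcnh8. Kcnq3, of the M-current that damps neuronal firing, was below VAD by both its probe sets each time (mean -0.13, -0.18 and -0.38). Kcna4, an A-type channel, had probe sets at 0.86 and -0.69 at 4 h and a mean of 0.37 at 8 h.

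The 15 inward rectifiers had medians of -0.10, 0.05 and -0.15. Kcnj12, an inward rectifier of heart and muscle, had ratios of 1.58 on the VAD array and 0.917, 0.82 and 0.972 after retinol. It was beyond noise at 4 h (-0.79) and 8 h (-0.95), but its VAD ratio was the highest of the 83, and against a ratio of 1 in place of VAD it was at -0.13 and -0.29. Kcnj4 was at -0.32, -0.42 and -0.71, and both its probe sets were below VAD each time, at -1.20 and -0.22 at 24 h. Kcnj14 was at -0.74 at 24 h after -0.04 and 0.03. The subunits Kcnj9 (0.66, 0.35 and -0.21), Kcnj3 (-0.35, -0.04 and -0.24), Kcnj5 (0.36, -0.18 and -0.46) and Kcnj6 (0.22, 0.16 and 0.53), which form channels opened by G proteins, had no common direction. Kcnj15 was at -0.60 at 4 h and Kcnj2 at -0.53, and at 24 h they were at -0.10 and 0.08. The kidney channel Kcnj1 was at -0.20, 0.11 and 0.35 with all 3 probe sets above VAD at 24 h, the glial channel Kcnj10 at -0.14, 0.05 and -0.31, and Kcnj16 at -0.01, 0.08 and -0.15. Of the tandem-pore genes, Kcnk1 was at 0.28, 0.40 and 0.49 and Kcnk3 at 0.05, -0.11 and 0.16, from probe sets on either side of VAD. The auxiliary Kcnab2 was at -0.07, -0.13 and -0.23. Another 16 potassium channel genes (Kcna3, Kcnab1, Kcnab3, Kcnc4, Kcnf1, Kcng1, Kcnh4, Kcnh5, Kcnh6, Kcnh7, Kcnj8, Kcnj13, Kcnn1, Kcnn3, Kcns1 and Kcns3) were each read by 1 probe set. They ranged from -0.53 (Kcnh5) to 0.47 (Kcnf1) at 4 h, from -0.43 (Kcnab1) to 0.50 (Kcnh6) at 8 h and from -0.47 (Kcns1) to 0.47 (Kcnn3) at 24 h.

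**Figure D4:**
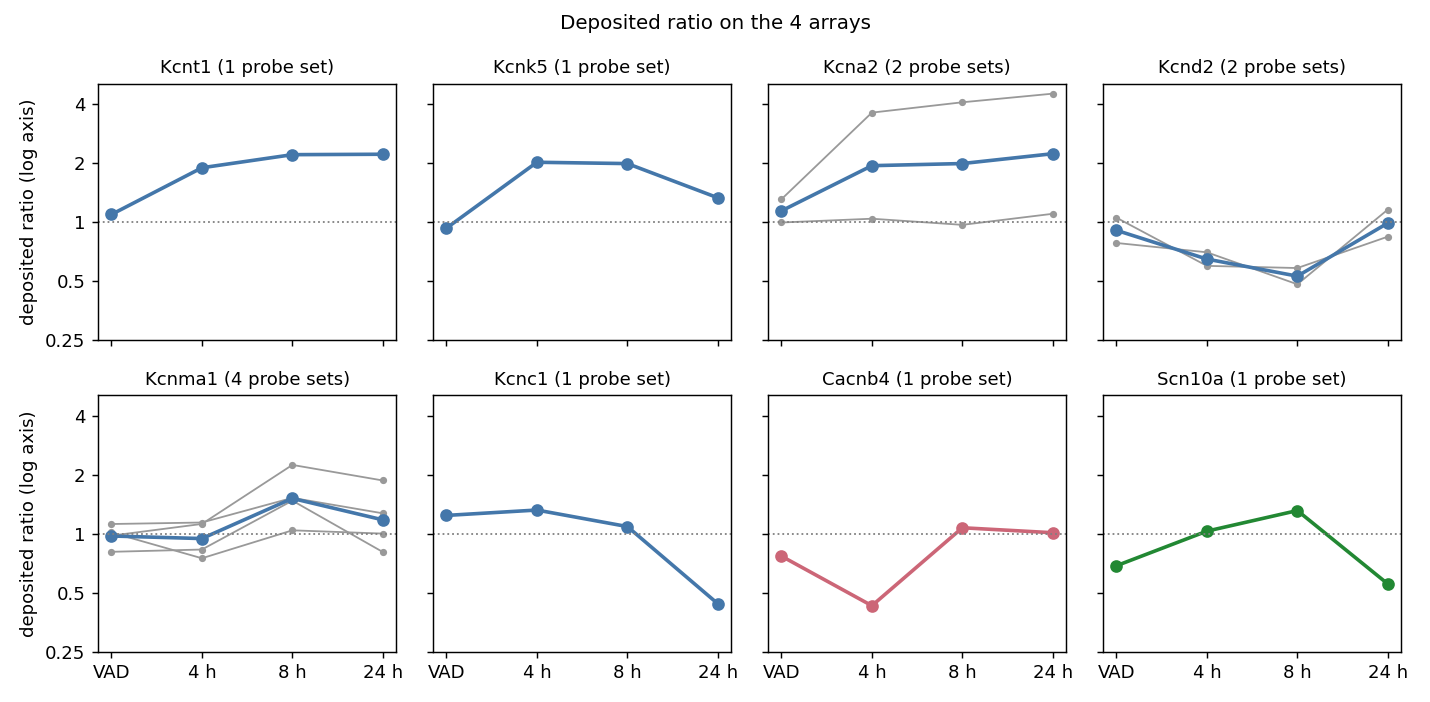
Deposited ratio (vertical log axis) on the VAD, 4, 8 and 24 h arrays for 8 channel genes, coloured by class (blue potassium, red calcium, green sodium). Thick lines are the gene, thin grey lines its probe sets where there are 2 or more. Kcnd2 has both grey lines low at 8 h, whereas Kcna2 has 1 grey line between 3.61 and 4.51 after retinol and 1 that stays between 0.965 and 1.10.

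Calcium channel genes lay closest together, with SDs across genes of 0.27, 0.26 and 0.33, the lowest of the 4 classes at each time. The L-type pores Cacna1c, Cacna1d and Cacna1s, which carry the long-lasting current of muscle and secretory cells, were at -0.05, -0.18 and -0.04 at 4 h, -0.17, -0.25 and -0.02 at 8 h, and -0.16, -0.02 and -0.01 at 24 h. Cacna1s had both probe sets within 0.11 of VAD at each time. Cacna1d was read by 5 probe sets, from -0.68 to 0.13 at 4 h, from -0.79 to 0.20 at 8 h and from -0.46 to 0.33 at 24 h. Probe sets of Cacna1c ran from -0.21 to 0.22 at 4 h and from -0.26 to -0.06 at 8 h. At 24 h they were at -0.53, 0.58 and -0.52, so the mean of -0.16 averaged values on opposite sides of VAD. From 8 h to 24 h the probe sets of Cacna1c lay 1.23 apart, the widest span of the channel genes for that step. The T-type pores, low-voltage channels reported in spermatogenic cells, were Cacna1g (0.00, 0.05 and 0.04) and Cacna1h, with ratios of 0.80, 0.869, 0.637 and 0.569 and changes of 0.12, -0.33 and -0.49. Neither was beyond noise. Of the presynaptic types, Cacna1b (N-type) was below VAD by both probe sets each time, with ratios of 0.955, 0.732, 0.696 and 0.66, and at -0.99 and -0.07 at 24 h. Cacna1a (P/Q-type) was at 0.07, -0.04 and -0.11 over 4 probe sets and Cacna1e (R-type) at 0.28, 0.19 and 0.08.

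The largest differences in the calcium class were in auxiliary subunits, which set trafficking and gating of the pores. Cacnb4 had ratios of 0.768, 0.429, 1.07 and 1.01 on the VAD, 4, 8 and 24 h arrays. The 4 h array was low, at -0.84, and the 8 h array was 1.32 above it. Cacna2d1, the target of gabapentin, had ratios of 0.775, 0.761, 0.561 and 0.389, or -0.03, -0.47 and -0.99. Its 24 h value was just short of 2-fold and of the noise bound. Each was read by 1 probe set with a VAD ratio more than 10% below 1. Cacnb2 was at -0.11, -0.38 and -0.17, Cacnb3 at -0.40, -0.21 and -0.01, Cacnb1 at -0.09, -0.01 and -0.11 and the muscle subunit Cacng1 at 0.03, -0.04 and 0.03.

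Of the 10 sodium channel genes, 4, 2 and 3 were above VAD at 4, 8 and 24 h. Scn8a, a main channel of axon initial segments, had 3 probe sets, with changes of -1.03, -0.98 and -2.01 by one and 0.34, 0.33 and -0.40 and -0.12, 0.27 and 0.24 by the others. The mean at 24 h of -0.72 was beyond noise through the first. Scn10a, of pain-sensing neurons, had ratios of 0.686, 1.03, 1.31 and 0.554: the 8 h array was highest (0.94) and the 24 h array lowest (-0.31), 1.24 apart. Against 1 in place of VAD its 8 h value was 0.39. Scn11a, of the same neurons, was at -0.38, -0.88 and -0.08.

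Scn1a and Scn2a, of central neurons, were at -0.16, -0.61 and -0.07 and at 0.07, -0.44 and 0.01, lowest at 8 h. Scn9a, expressed in sensory neurons, was at -0.54, -0.35 and -0.37, with probe sets at -0.86 and 0.12 at 24 h. The muscle channel Scn4a was at -0.33, -0.28 and -0.09 over 3 probe sets, all below VAD at 4 h and 8 h. Scn7a, an atypical member that voltage does not open, was at 0.23, 0.44 and 0.45 with both probe sets above VAD each time, at 0.22 and 0.68 at 24 h. Scn3a was at -0.02, -0.06 and 0.47, and the beta subunit Scn2b at 0.03, -0.02 and -0.24. Of 12 neuron and axon markers 9 were measured, with medians of -0.19, 0.02 and -0.20 and values from -1.70 to 0.44 at 4 h. The part of nerve content in the sodium channel values was not tested.

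Chloride channel genes had the highest class median against VAD at each time. Clcn7, the lysosomal exchanger, was at 0.53, 0.44 and 0.63, Clcn1, of skeletal muscle, at 0.56, 0.41 and 0.47, and the endosomal exchanger Clcn4 at 0.38, 0.18 and 0.45. Clcn3, another endosomal exchanger, lay the other way at -0.46, -0.46 and -0.44, with ratios of 0.88, 0.639, 0.638 and 0.648. Clcn5, of kidney endosomes and the only member with 2 probe sets, was at 0.32, -0.14 and 0.05, with probe sets at -0.40 and 0.49 at 24 h. None of the 5 was beyond noise against VAD. VAD ratios of Clcn7 and Clcn4 were 0.654 and 0.795, and against a ratio of 1 in place of VAD the class median was 0.05, -0.15 and 0.12. At 8 h this lay below the potassium (0.01) and calcium (-0.11) medians on the same baseline, so the ranking did not hold there.

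Between successive retinol arrays the noise was lower (0.31 for 8 h against 4 h and 0.30 for 24 h against 8 h). From 4 h to 8 h, 3 channel genes were beyond noise, against 8.49% of all genes: Cacnb4 (1.32) and Kcnma1 (0.68) were higher (4.37% of all genes) and Clcn5 (-0.46) lower (4.12%). Cacnb4 alone was 2-fold higher (0.718%) and none was 2-fold lower (0.929%). Over the same step spermatid markers had a median of -1.11, with 6 of 10 at least 2-fold lower. From 8 h to 24 h, the probe sets of a channel gene lay a median of 0.48 apart, against 0.22 for other genes. The noise from the 25 channel genes with exactly 2 probe sets was 0.35, above the 0.30 from other genes. With the noise of 0.30, 11 of 83 channel genes were beyond noise, or 13.3%, against 8.07% of all genes, and this was not tested. They were Kcnd2 (0.90), Scn11a (0.80), Kcnc2 (0.67), Kcnq1 (0.66) and Scn3a (0.52) above the 8 h array (3.89% of all genes) and Kcnc1 (-1.31), Scn10a (-1.24), Kcnj14 (-0.77), Kcnh6 (-0.63), Scn8a (-0.60) and Kcnma1 (-0.36) below it (4.18%). Kcnc1 and Scn10a were 2-fold lower (0.655%) and none was 2-fold higher (0.507%). Sodium channel genes gave 4 of the 11, from a class of 10, and this too was not tested. Scn10a and Scn11a were read by 1 probe set each. The 2 probe sets of Scn3a come from 1 sequence, and its 0.52 is below the bound of 0.60 for 1 probe set. Those of Scn8a were at -1.03, -0.73 and -0.03. Calls with the noise from distinct sequences were not made for this step.

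Genes that work with these channels were also mostly near VAD. Of 18 listed calcium store, pump and exchanger genes 15 were measured, with medians of -0.07, -0.03 and -0.01 at 4, 8 and 24 h and none 2-fold changed. The sodium-calcium exchanger gene Slc8a1 was at 0.22, 0.61 and 0.90, with all 5 probe sets above VAD at 24 h (0.42 to 1.41), and the store-operated channel gene Orai1 was at -0.58 at 24 h. Of 16 calmodulin and calcium-calmodulin enzyme genes 13 were measured (medians 0.03, -0.14 and 0.00), and the calcineurin regulatory subunit gene Ppp3r1 was 2-fold higher each time (1.10, 1.43 and 1.51, with probe sets at 0.77 and 2.25 at 24 h). Of all genes 1.41%, 2.83% and 3.27% were so called. The VAD ratio of Ppp3r1 was 0.558, far from 1, and its ratios after retinol were 1.195, 1.502 and 1.593, below 2 each time. The catalytic subunit gene Ppp3cb was at 0.88 at 24 h.

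Other cation channels (15 of 28 measured) had medians of 0.05, -0.15 and 0.05. Only the acid-sensing channel gene Asic2 was 2-fold changed, at -1.09 at 24 h from probe sets at -1.88 and -0.30. At that time 2.64% of all genes were at least 2-fold lower. The sperm calcium channel gene Catsper2 was at -0.39, -0.54 and -0.79. Of 15 other chloride channel genes 4 were measured, with Clca4 at -1.07 and the mitochondrial porin gene Vdac1 at 0.89 at 24 h (probe sets at 0.84 and 0.94). The VAD ratio of Vdac1 was 0.712. Channel scaffolds and partners (14 of 21) had medians of 0.08, 0.19 and 0.11 and none 2-fold changed, with the ubiquitin ligase gene Nedd4 at 0.89 and the scaffold gene Dlg1 at 0.67 at 24 h.

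Cell type markers differed between arrays too. Of all genes 1.41%, 2.83% and 3.27% were at least 2-fold higher at 4, 8 and 24 h, and 1.25%, 1.88% and 2.64% lower. Spermatid markers (10 of 12 measured) had medians of 0.72, -0.37 and -0.48, with 1 of 10 at least 2-fold higher at 4 h and 1 lower at 24 h. Pachytene spermatocyte markers (8 of 10) were at 0.61, -0.18 and -0.22, with 1 at least 2-fold higher at 4 h. Leydig markers (9 of 11) were at 0.11, 0.05 and -0.50, with 3 of 9 at least 2-fold lower and 1 higher at 24 h. Sertoli markers (13 of 16) were at 0.09, -0.01 and -0.07, but single markers moved widely. They ranged from -0.66 (Aqp8) to 1.27 (Krt18) at 8 h and from -1.13 (Aqp8) to 1.03 (Wt1) at 24 h. At least 2-fold higher were 2 of the 13 at 8 h and 2 at 24 h, and 1 was lower at 24 h. Macrophage and leukocyte markers (7 of 9) were at -0.01, -0.01 and 0.27. Spermatogonium markers (5 of 8) were at 0.20, 0.34 and 0.20, with 1 at least 2-fold higher at 24 h (Kit, 1.005). Schwann cell markers (5 of 8) were at -0.10, -0.01 and 0.12. Skeletal and cardiac muscle markers (11 of 13) were at -0.19, -0.16 and -0.17, with 1 at least 2-fold lower at 4 h and 2 at 24 h. Since ratios hold no level, no summed marker level can be given. The part of cell content in the channel values was not tested.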

How the data were processed

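The deposited values are linear ratios for 8799 probe sets, 59 of them controls, and the sources used here do not give the authors' steps from signal to ratio, the reference or any pooling. GCOS and MAS5 are named without a version in the submitters' processing notes. Of the other probe sets 7006 carried 1 symbol, 308 several and 1426 none. Symbols were updated through Entrez IDs with the RefSeq table (6985 matched), which changed no member's symbol. Ratios were put on the log2 scale and averaged over the probe sets of a gene, with Python 3.11.15, numpy 2.4.6 and pandas 2.3.3. No test was run, as each group has 1 array. The noise and agreement rules were tested on simulated data. There every probe set had independent noise of the same size, and all probe sets of a changed gene shared its change. Disagreement between probe sets of the kind seen in Kcna2 was not simulated. The number of arrays limits the precision.

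Named are all genes with 2 or more probe sets, all 2-fold changed genes, the 5 highest and 5 lowest at each time, the 2 highest and lowest between successive times, all L- and T-type, Scn and Clcn genes, and 2 genes of each list of pumps, enzymes, other channels and partners. The plan asked for 2 genes of each cell type marker list too, and these are not all named. Further channel genes were named after their values were seen. Members and lists were chosen with earlier results of these data known. Alternatives changed the probe set summary, scaling, baseline, probe set filter, member rule, symbols and threshold, and 2 were chosen after seeing the data.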

Additional observations from a re-analysis of the deposited data

Results flagged for a closer look

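Genes on opposite sides of VAD at different times, with at least 2-fold between those arrays, were Cacnb4, Kcnc1 and Scn10a. Cacnb4 was 1.32 higher at 8 h and 1.24 higher at 24 h than at 4 h. Kcnc1 was at -1.59 at 24 h in comparison with 4 h. Scn10a was at -1.24 at 24 h in comparison with 8 h. None was beyond noise on both sides of VAD. Within noise were Cacnb4 at 8 h (0.48) and 24 h (0.40), Kcnc1 at 4 h (0.09) and Scn10a at 24 h (-0.31). VAD ratios of Cacnb4 and Scn10a were 0.768 and 0.686, more than 10% below 1. Each gene was read by 1 probe set on 1 array a time, and the differences were not tested.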

How the results depend on the processing

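No paired analysis was possible because each group has 1 array, which also left no replicate to leave out. The 2-fold counts rest on few genes. At 4, 8 and 24 h against VAD, 2-fold higher genes numbered 3, 5 and 4 by the probe set of the highest mean ratio in place of 1, 2 and 1. Centring each array gave 2 at 24 h. With spike-in scaling, which moves all genes alike, 11, 6 and 21 were higher and 0 lower at 24 h, and 7, 4 and 7 genes had agreeing probe sets. Shares of all genes were not computed with this scaling. The median of the channel genes was 0.51, 0.46 and 0.61. Class medians were then 0.51, 0.50 and 0.68 (potassium), 0.51, 0.39 and 0.56 (calcium), 0.46, 0.30 and 0.54 (sodium) and 0.93, 0.68 and 1.07 (chloride). A ratio of 1 as baseline gave 1 lower gene at 4 h, 1 higher at 8 h, and 2 higher and 2 lower at 24 h. With probe sets of a VAD ratio within 10% of 1, 0 genes agreed at 8 h, Kcna2 turned to -0.040 at 8 h and Kcnc2 to -0.18 at 24 h. Kcnd3 turned to 0.068 at 4 h with spike-in scaling. Without probe sets that may match several transcripts or were made by relaxed rules, 2 genes were higher at 4 h, 3 higher and 0 lower at 24 h, and 0 and 1 agreed at 8 h and 24 h. Voltage-gated pore genes alone gave 0 higher genes each time. At 1.5-fold, 7, 6 and 5 were higher and 5, 7 and 7 lower. Of 2 alternatives added after seeing the data, genes with 2 or more probe sets gave 0 higher each time and 0 lower at 24 h, and noise from distinct sequences left 4, 4 and 3 genes beyond noise. No gene had every probe set past 2-fold at 8 h (0). The causes were not tested.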
